A study of Zea mays with 322 samples.

Results

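MIR171g is a microRNA locus on the short arm of chromosome 7 of maize, listed in the deposited tables as Cluster_254833, and is 1 of 64 MIRNA loci measured in this series. It was picked because earlier results of these data showed it lower in many aneuploid plants whichever chromosome segment varied. Its levels against the euploid controls are therefore given as a description, and tests are kept for contrasts that the choice did not use. Many of those contrasts reuse the same libraries in other pairings, so they are not wholly independent of the choice. Small RNAs were sequenced from leaves of greenhouse plants 45 days old, and the 322 libraries fall into 81 groups, most of them of 4 plants. The measures are the count of reads placed on the locus, and that count per 1000000 mapped reads of the library (RPM).

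The plants carried B–A translocations, in which the outer piece of an A chromosome arm moves with a B chromosome centromere, or Dp4, which duplicates proximal regions on both sides of the chromosome 4 centromere. B chromosomes are dispensable extra chromosomes of maize. In haploid material, disomies (h2D) had 2 copies of one segment and haploid controls (h1D) had 1 copy of every segment. The 17 disomies were for segments of both arms of chromosomes 1, 3, 4, 5, 7 and 9, for 2S and 2S_deletion (the 2S segment with a part missing), and for 6L, 8L and 10L, where S and L are the short and long arms. In diploid material, monosomies (1D, 14 lines), trisomies (3D, 15 lines and Dp4) and tetrasomies (4D, for 5S, 6S, 10L and Dp4) had 1, 3 and 4 copies of a segment, and diploid controls (2D) had 2. Haploids, triploids and tetraploids (1X, 3X and 4X) each had their own diploids, with the triploids in a Mo17 and the tetraploids in a W22 background, and W22 plants with 1 B chromosome (1B) were set against plants with none (0B). Some aneuploids carry B chromosome material that their controls lack, so the added segment and the B material cannot be told apart within a single contrast. After the libraries left out below, the values rest on 71 disomic, 56 monosomic, 62 trisomic, 14 tetrasomic, 4 haploid, 2 triploid, 4 tetraploid and 4 1B plants, set against 31 haploid and 70 diploid control plants. Samples are separate plants by their labels, and p-values are set against the spread between these plants. In the edgeR tests below that spread is estimated partly from all loci of a comparison, not from MIR171g alone.

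Plant microRNAs are cut from hairpin transcripts and guide the cleavage or translational repression of messenger RNAs to which they pair almost fully along their length. The miR171 family is among the oldest in land plants and is known for its targets among GRAS-domain transcription factors, which in Arabidopsis include the HAIRY MERISTEM proteins that keep meristems undifferentiated and act in leaf and chlorophyll development. Several loci of a genome usually encode miR171, some with an identical mature product.

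MIR171g lies at chr7:43696495-43696690 of the W22 genome, a window of 196 bases within the segment carried by TB-7Sc, so that the 7S disomy is the only line in which its own dosage was varied. In the RefSeq table for the B73 assembly Zm-B73-REFERENCE-NAM-5.0, whose coordinates differ from W22, MIR171g is a microRNA gene inside the span of the protein-coding gene LOC100278221, next to the long non-coding RNA LOC100192915. That table does not give strand or exons for them. The study's list of loci holds 8 members of the family, with 4 distinct mature sequences, which are shown because they set which reads can be told apart. Capitals mark the seed, bases 2 to 8 from the 5′ end.
MIR171g: uGAGCCGAgccaauaucacuuc
MIR171e, MIR171f, MIR171i and MIR171n: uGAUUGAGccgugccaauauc
MIR171m and the unnamed Cluster_42505: uUGAGCCGcgucaauaucucc
MIR171j: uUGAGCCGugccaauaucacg
MIR171g had the longest of these products, 22 bases against 21 bases in the other 7 loci. No other locus of the 64 shared its sequence or its seed. Set side by side without gaps and counted from the 5′ end of MIR171g, it matched MIR171j at 18 of 20 aligned bases (A8U and U20G), MIR171m at 16 of 20 bases (A8C, C10U, A18U and U20C) and MIR171e at 16 of 17 bases (A8U). These offsets of 1 and 4 bases place the products on a shared core, so their seeds differ although most of the bases are the same.

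A site predicted for MIR171g in the study's list of targets lies at bases 439 to 460 of transcript Zm00001d028526_T001, annotated as a GRAS transcription factor on chromosome 1 (B73 AGPv4, gene span chr1:38187938-38189632). It is shown because it is the kind of target the family is known for.
Site in Zm00001d028526_T001: cgggugauauugguucggcuca
Over the 22 bases, 18 pairs were Watson-Crick, 3 were G–U pairs (at bases 9, 20 and 21 of the microRNA) and 1 was a mismatch (base 22). The list held here is shortened, so other targets were not analysed here.

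The libraries held 7139 to 246556 counts over the 64 loci (median 79912.5), and MIR166f and MIR166g took a median of 95.6% of them. MIR171g had 0 to 847 counts per library with a median of 52, which was a median of 0.0740% of a library's counts, and 25 libraries had fewer than 10. The library with 0 counts was a 1L trisomic plant that the study had left out. That library, another 1L library and a Dp4 tetrasomic library, all left out by the study, and a Dp4 plant with conflicting dosage records were not used. In 7 of 478 pairs of plants of the same group a chi-square test over the loci called no difference (variance 1.18 to 1.55 times that of sampling). A 6S control plant was in more than 1 of them, so 6 pairs were joined, each counted as 1 sample. The tables hold only MIRNA loci, so the leaf label could not be checked against marker genes, and in whole leaves fewer cells of a type and less RNA per cell cannot be told apart.

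The level of MIR171g spanned a wide range even where no segment varied. Means of the 18 diploid control groups ran from 6.99 RPM, in the group shared by 1S, 3S and 5L, to 202 RPM in the 8L controls, a 28.9-fold range with a median of 39.6 RPM. The 8 haploid control groups were closer together, at 48.8 to 101.2 RPM, a 2.08-fold range. As log2(RPM + 0.5), the SD between diploid control groups was 1.29, the third largest of 43 loci (median locus 0.59), while between haploid control groups it was 0.40, the 34th of 48 loci (median locus 0.49). The pooled SD between plants of a group was 0.65.

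**Figure D1:**
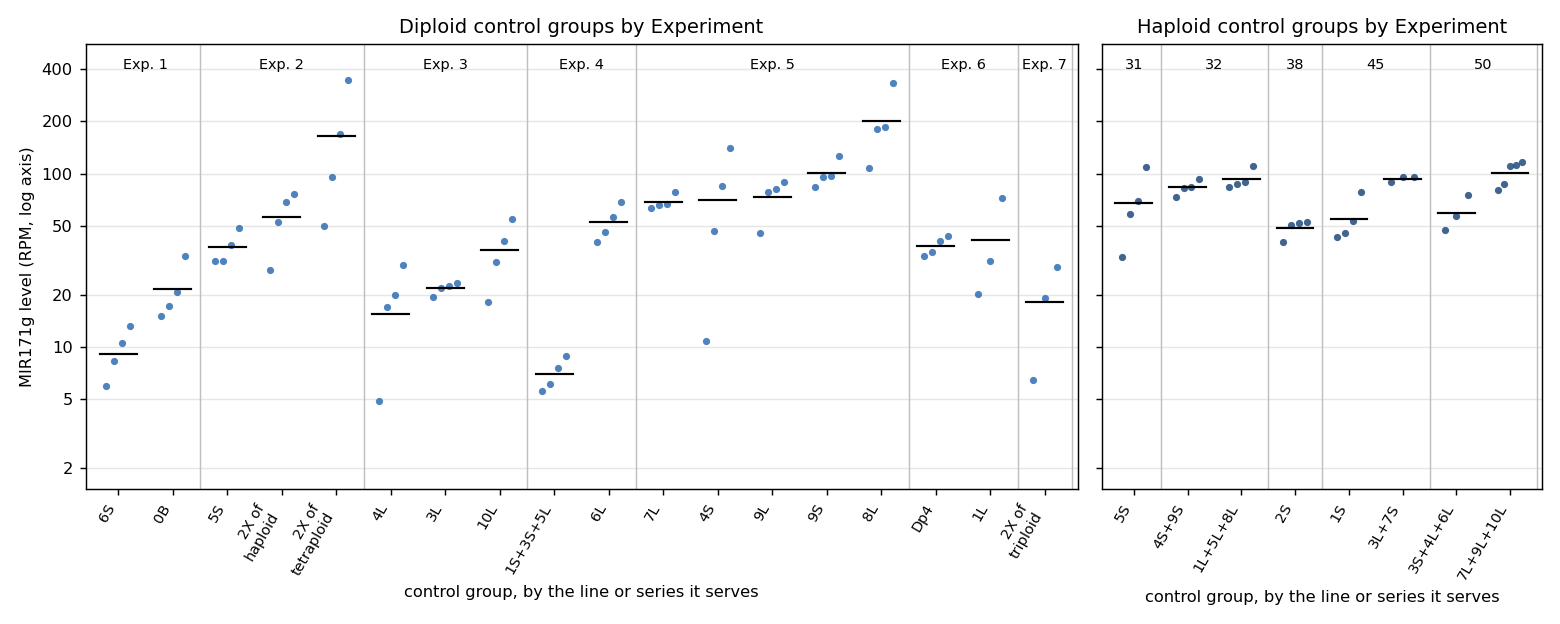
MIR171g level in RPM on a log axis for each control plant (points) and control group (black line, mean), grouped by the Experiment under which the study listed the libraries, with diploid groups on the left and haploid groups on the right. The diploid group means run from 6.99 to 202 RPM and the haploid group means from 48.8 to 101.2 RPM. By fold, the diploid groups furthest apart within an Experiment are at 6.99 and 52.7 RPM. Plants of a near-identical pair enter the mean once.

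Pairs of diploid control groups listed under the same Experiment were compared as a baseline with no varied segment, with edgeR's quasi-likelihood test and Benjamini-Hochberg adjustment over the loci of each comparison, and a false discovery rate (FDR) under 0.05 taken as a call. MIR171g was called in 7 of 19 pairs, against 7.24% of all tests of all loci in these pairs. The pairs share groups and are not independent of each other. In Experiment 4 the 1S, 3S and 5L controls had 5.53, 6.09, 7.54 and 8.79 RPM, and the 6L controls 40.3, 45.7, 56.2 and 68.3 RPM. Every plant of the first group was below every plant of the second, a log2 fold change of −2.74 ± 0.36 (SE, FDR = 5.87e-12). In Experiment 5 the 8L controls, at 108, 180, 186 and 335 RPM, were the highest. The 7L controls, at 63.1, 65.5, 66.3 and 78.3 RPM, were all below them (log2 fold change −1.60 ± 0.17, FDR = 1.20e-16), and 8L was also above 9L (1.26 ± 0.24, FDR = 4.28e-04) and 9S (0.70 ± 0.18, FDR = 0.0118). The 7L controls were below 9S (−0.87 ± 0.17, FDR = 0.00507). Plants of the 7L and 8L controls had a pooled SD of 0.48 in log2(RPM + 0.5), and the FDR of that pair rests partly on the spread of other loci.

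Further calls came from the 6S controls (9.02 ± 2.66 RPM, SD, n = 3), which were below the 0B plants (21.6 ± 8.21 RPM, n = 4; log2 fold change −1.68 ± 0.37, FDR = 1.72e-04). The 5S controls were below the diploids of the tetraploid series (−1.58 ± 0.45, FDR = 0.0460). In the order of the Experiment 5 means, 8L, 9S, 9L, 4S and 7L, the neighbours 9S and 9L (FDR = 0.138), 9L and 4S (FDR = 0.962) and 4S and 7L (FDR = 0.919) were not called. In Experiment 3 neither of the neighbouring pairs, 10L and 3L (FDR = 0.278) and 3L and 4L (FDR = 0.973), was called.

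Of 3 pairs of haploid control groups, 1 was called, against 7.19% of all tests. The 1S controls had 43.001, 45.2, 52.9 and 78.0 RPM, and the controls of 3L and 7S had 88.8, 95.6 and 95.9 RPM, with no overlap (log2 fold change −0.69 ± 0.19, FDR = 0.0197). This call was lost without any single plant of the 3L and 7S controls (fold changes −0.88 to −0.63 over the plants left out). The controls of 3S, 4L and 6L were below those of 7L, 9L and 10L by a similar amount (−0.77 ± 0.26), which was not called (FDR = 0.0586).

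In disomies MIR171g was lower than in the haploid controls in nearly every line. The log2 fold change was below 0 in 16 of 17 disomies, with a median of −1.22 and a range of −3.59 to 0.07, beside a median of 0.00 over all loci of these comparisons. MIR171g was called lower in 12 of the 17 and higher in none, against 7.08% of all tests called lower, and every disomic plant was below every control plant in 12 of the 17, against 11% of all tests. The next most frequent locus was called lower in 6 disomies. These contrasts are among those that chose the locus, so the counts describe it and no test is drawn from them.

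**Figure D2:**
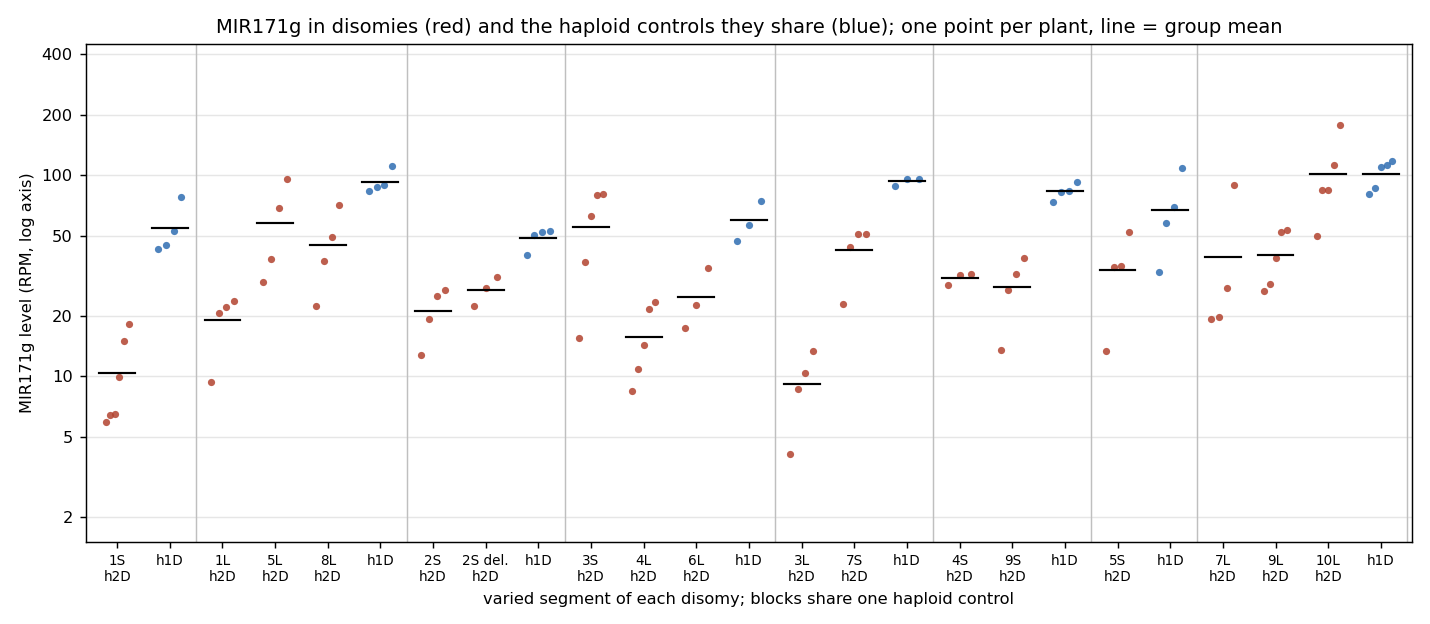
MIR171g level in RPM on a log axis in each disomic plant (red) and each haploid control plant (blue), with group means as black lines. Each block holds the disomies that share a haploid control, which is at its right. The 3L and 1S disomies have the lowest means, at 9.13 and 10.3 RPM, and the 10L disomy, at 101.9 RPM, lies with its control.

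The lowest levels relative to the control were those of 3L, 1L and 1S. The 3L disomies had 4.08, 8.66, 10.4 and 13.4 RPM, against 88.8, 95.6 and 95.9 RPM in their controls. All 4 plants were far below the 3 controls, and the log2 fold change was −3.59 ± 0.33 (SE). The 1L disomies had 9.34, 20.5, 22.1 and 23.7 RPM, against 83.5, 87.3, 88.9 and 111 RPM in their controls, a log2 fold change of −2.93 ± 0.26. In the 1L disomies a mean of 7.97% of mapped reads fell on the 64 loci, against 5.02% in their controls, and the part of this in the result was not tested beyond scaling by all mapped reads, which gave −2.30. The 1S disomies had 5.91, 6.42, 6.50, 9.91, 14.9 and 18.2 RPM, against 43.001, 45.2, 52.9 and 78.0 RPM in their controls (−2.86 ± 0.28). The 1S and 3L disomies came partly from another Experiment than their controls, and with only the plants of the controls' Experiment the values were −3.01 for 1S (5 of 6 plants) and −4.17 for 3L (2 of 4 plants).

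Most other disomies were lower than their controls by 1 to 2 units of log2. The 7S disomies, which carry an added copy of MIR171g itself, had 22.9, 44.02, 50.96 and 50.99 RPM, against 88.8, 95.6 and 95.9 RPM in the controls. All 4 were below the 3 controls although the gene was present in 2 copies instead of 1, with a log2 fold change of −1.26 ± 0.22. The 4S disomies had 28.4, 31.9 and 32.1 RPM and the 9S disomies 13.5, 26.9, 32.3 and 38.8 RPM, against 73.2, 82.9, 83.5 and 92.8 RPM in the control group that they share. Neither overlapped it (−1.20 ± 0.18 and −1.42 ± 0.19). The 4L disomies had 8.40, 10.9, 14.3, 21.6 and 23.3 RPM and the 6L disomies 17.4, 22.6 and 34.5 RPM, against 46.97, 56.8 and 74.7 RPM in the shared control. These were again without overlap (−1.56 ± 0.39 and −0.99 ± 0.37). The 6L disomy was not called, but was in 5 of 7 alternatives (−1.26 to −0.99), those that altered its fit. The 2S and 2S_deletion disomies, at 12.8 to 26.97 RPM and 22.2 to 30.98 RPM, lay below their control at 40.2 to 52.5 RPM (−1.01 ± 0.26 and −0.76 ± 0.23), and 2S_deletion was not called.

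Of the remaining disomies, 9L and 8L lay wholly below their controls and 7L, 5S, 5L, 3S and 10L overlapped theirs. The 9L disomies had 26.5 to 53.1 RPM, below the 80.3 to 117 RPM of the controls shared by 7L, 9L and 10L (−1.22 ± 0.29). The 7L disomies had 19.3, 19.8, 27.5 and 89.5 RPM, and their highest plant lay within the control range (−1.40 ± 0.37, and −2.32 without that plant). The 8L disomies had 22.4, 37.3, 49.2 and 71.4 RPM, below the controls at 83.5 to 111 RPM (−1.06 ± 0.27), and the 5S disomies had 13.3, 34.8, 35.1 and 52.3 RPM, against 32.9, 58.0, 69.2 and 109 RPM (−1.30 ± 0.32). The lines that were not lower were 3S, at 15.5, 36.9, 62.6, 79.5 and 80.3 RPM against 46.97, 56.8 and 74.7 RPM in its control (−0.01 ± 0.42), and 10L, at 50.006, 84.4, 84.7, 113 and 177 RPM against 80.3, 86.6, 110, 112 and 117 RPM (0.07 ± 0.26). The 5L disomies, at 29.5, 38.3, 69.0 and 95.5 RPM against 83.5 to 111 RPM, lay between (−0.50 ± 0.30). The 3S and 10L values, not called, changed sign over the 7 alternatives (−0.11 to 0.36 and −0.01 to 0.13). They also did so without single plants (−0.25 to 0.23 and −0.34 to 0.37).

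Disomies that share a control group were compared with each other to ask, without the controls, whether their levels differed. Each segment came in its own line, so effects of the segment, the line and its B chromosome material cannot be told apart here. MIR171g was called in 5 of 12 pairs of disomies, against 17.4% of all tests. Many of the pairs share a disomy, so they are not independent of each other. The 1L disomies were below the 5L disomies, with no overlap (log2 fold change −2.08 ± 0.42, FDR = 0.00805), and below the 8L disomies (−1.74 ± 0.41, FDR = 0.00335). The 3S disomies were above the 4L disomies (1.83 ± 0.42, FDR = 0.00300). The 3L disomies were all below the 7S disomies (−2.32 ± 0.43, FDR = 0.0119, n = 4 plants each by edgeR), and the 9L disomies were below the 10L disomies (−1.31 ± 0.35, FDR = 0.0143). The 3L disomies came partly from another Experiment than the 7S disomies, and the share of Experiment in their difference was not tested. Without the fourth 3L disomic plant, the 3L and 7S difference was no longer called (−2.65 to −2.07 over the plants left out). The 7 pairs not called included 2S and 2S_deletion (−0.28 ± 0.31, FDR = 0.679), 7L and 9L (−0.11 ± 0.53, FDR = 0.993) and 4S and 9S (0.46 ± 0.27, FDR = 0.293). The 7L and 10L disomies (−1.41 ± 0.51, FDR = 0.0588) were called in 5 of 7 alternatives.

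In diploid aneuploids the pattern was less uniform than in disomies, with levels both below and above the controls. Among the 14 monosomies the log2 fold change had a median of −0.44 (−1.32 to 0.93), and 5 were called lower and none higher, against 7.8% of all tests called lower. All monosomic plants were below all control plants in 2 lines (3S and 10L), against 7.8% of all tests. Among the 16 trisomies the median was −0.33 (−3.06 to 1.07), and 3 were called lower and none higher, against 2.61% of all tests called lower. Trisomic plants were all below the controls in 4 lines (1L, 3L, 6L and 7L), against 7.54% of all tests. Of the 4 tetrasomies 1 was called lower and none higher, against 4.24% of all tests called lower. The next most frequent locus was called lower in 4 monosomies, and 1 other locus was called lower in as many trisomies as MIR171g. In tetrasomies 1 locus was called lower more often, in 2 lines, and 4 others as often. These counts again describe contrasts by which the locus was chosen. With DESeq2's size factors in the same test, the trisomies had 3 calls lower and 1 higher. Over alternatives of scaling, filter, test and samples, some values not called changed sign. Among monosomies these were 1S (−0.004 to 0.38) and 5L (−0.38 to 0.07). Among trisomies they were 1S (−0.27 to 0.05), 3S (−0.77 to 0.10) and 5S (−0.42 to 0.10). Leaving out 1 plant turned the 1S, 1L, 4L, 5S and 5L monosomies, the 3S, 4L and 5S trisomies and the 6S tetrasomies. Their ranges lay between −0.88 (4L monosomies) and 1.05 (5S monosomies).

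**Figure D3:**
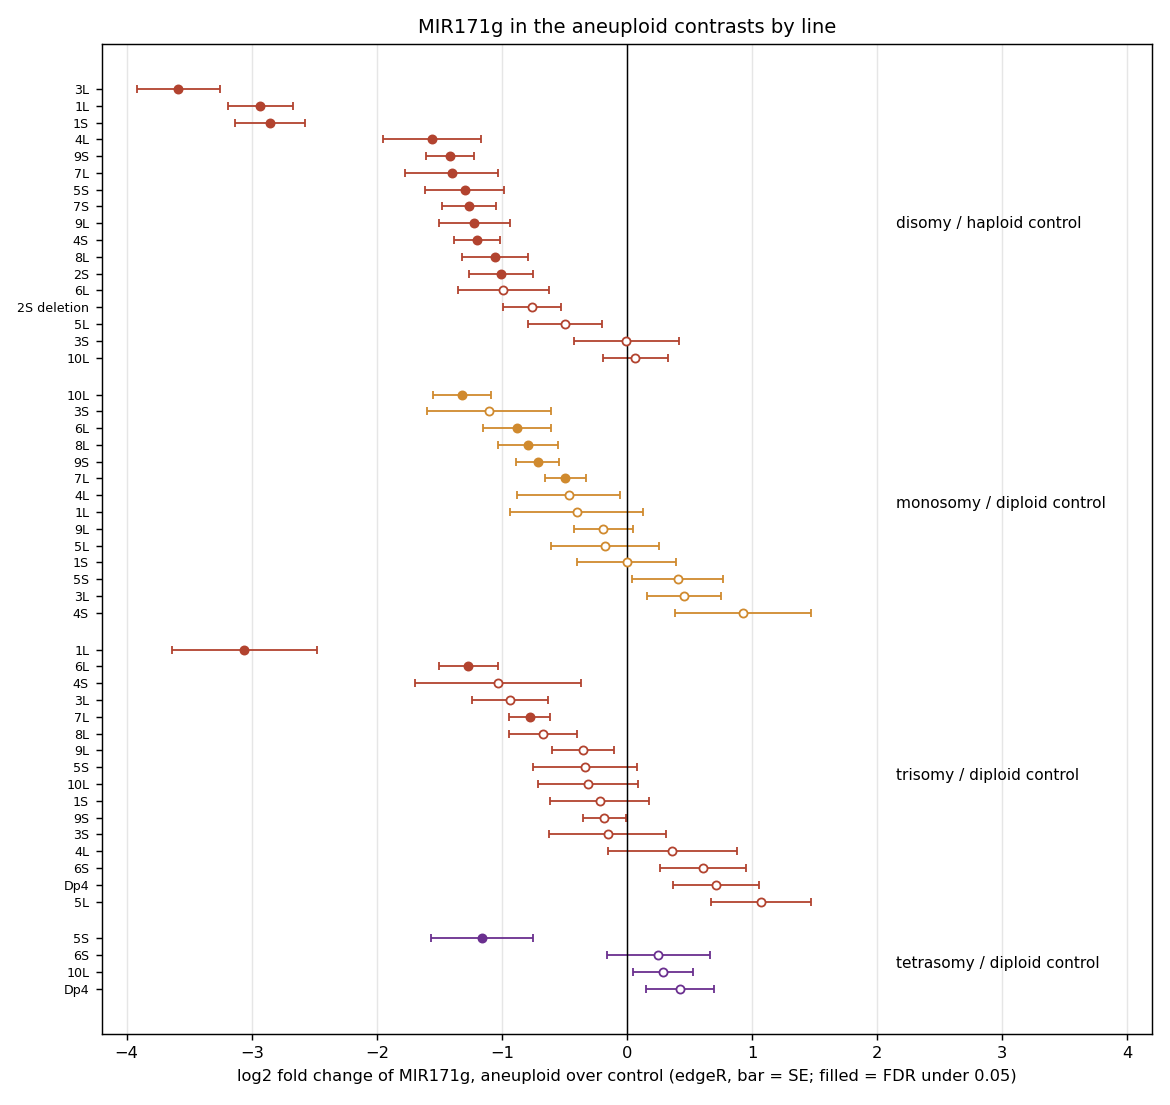
Log2 fold change of MIR171g over its control for each line, with bars of 1 SE, in disomies, monosomies, trisomies and tetrasomies from top to bottom. Filled points are called at an FDR under 0.05. All 12 filled points among the disomies, 5 among the monosomies, 3 among the trisomies and 1 among the tetrasomies lie left of 0.

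The 10L monosomies had 10.5, 13.7, 13.9 and 16.8 RPM, against 18.004, 30.7, 40.97 and 54.4 RPM in the 10L controls, without overlap (log2 fold change −1.32 ± 0.23). The 10L tetrasomies, at 43.04, 44.5, 53.4 and 53.8 RPM, lay at the upper end of the same controls (0.29 ± 0.24). The 6L monosomies had 21.7, 23.7, 27.4 and 51.7 RPM and the 6L trisomies 14.7, 17.2, 18.5 and 18.7 RPM, against 40.3, 45.7, 56.2 and 68.3 RPM in the 6L controls. Both were lower (−0.88 ± 0.27 and −1.27 ± 0.24), the trisomies without overlap.

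The 7L monosomies had 45.1, 54.3, 56.7 and 66.4 RPM and the 7L trisomies 37.5, 41.8, 41.98 and 45.3 RPM, against 63.1, 65.5, 66.3 and 78.3 RPM in the 7L controls (−0.49 ± 0.17 and −0.78 ± 0.16). The monosomies touched the control range and the trisomies did not, and the monosomy call held in only 2 of 7 alternatives (−0.49 to −0.30). The 8L monosomies had 78.3, 112, 122 and 174 RPM and the 8L trisomies 53.5, 111, 140 and 189 RPM, overlapping controls at 108 to 335 RPM (−0.79 ± 0.24 and −0.67 ± 0.27), and only the monosomy was called. The 9S monosomies had 27.1, 60.2, 73.5 and 90.8 RPM, and their 3 lowest plants lay below the controls at 83.3, 95.0, 96.8 and 127 RPM (−0.71 ± 0.17).

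The largest fold change in diploid material was that of the 1L trisomies, with 2.39, 5.22 and 7.33 RPM, against 20.2, 31.1 and 72.0 RPM in the 1L controls (−3.06 ± 0.58). All 3 trisomic plants were below the controls, on 5 to 12 counts each, and the 1L disomies were likewise far below their controls. The 1L monosomies, at 17.2 to 47.99 RPM, overlapped the diploid 1L controls and were not called (−0.40 ± 0.53). The 5S tetrasomies had 8.77, 22.3, 24.996 and 36.7 RPM, against 31.4, 31.4, 38.6 and 48.7 RPM in the 5S controls (−1.16 ± 0.41). The highest tetrasomic plant overlapped the controls. The mean RPM was above that of the controls in 4 of 14 monosomies, 6 of 16 trisomies and 3 of 4 tetrasomies, none of them called. Among these the log2 fold change by edgeR was below 0 in the 1S monosomies (−0.002) and in the 1S (−0.22) and 5S (−0.34) trisomies. In the rest it was above 0, up to 1.07. The highest was that of the 5L trisomies (6.88, 14.1, 15.4 and 18.1 RPM, against 5.53 to 8.79 RPM, 1.07 ± 0.40). The Dp4 trisomies (47.6, 54.6 and 70.9 RPM, against 33.6 to 43.3 RPM, 0.71 ± 0.34) lay wholly above their controls. The 4S monosomies (41.8, 75.1, 108 and 165 RPM, against 10.8, 46.5, 84.8 and 141 RPM, 0.93 ± 0.55) overlapped theirs. Among the others were the 3L monosomies at 21.02, 35.4, 39.6 and 46.6 RPM, against 19.4, 21.8, 22.5 and 23.4 RPM in controls (0.45 ± 0.30), and the 6S trisomies at 6.91, 11.4, 13.9 and 22.5 RPM, against 5.95, 8.21, 10.4 and 13.1 RPM (0.61 ± 0.34). The 6S control plants at 8.21 and 13.1 RPM were counted as 1 sample.

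**Figure D4:**
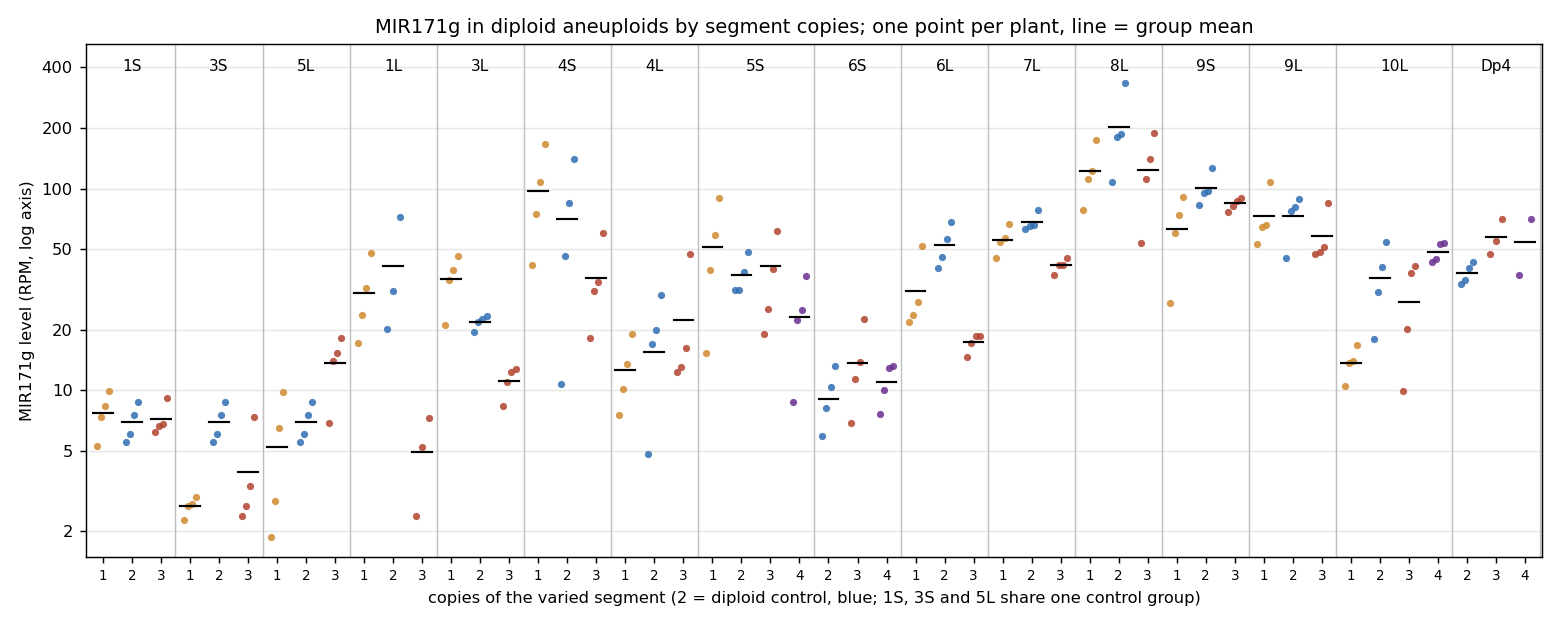
MIR171g level in RPM on a log axis in each plant of the diploid lines by copies of the varied segment, with 1 copy in orange, the 2-copy diploid controls in blue, 3 copies in red and 4 copies in purple, and group means as black lines. The 6L and 7L trisomic plants lie below all of their controls, and the 1S, 3S and 5L lines with their shared control have group means of 2.66 to 13.6 RPM.

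Trisomies were set against monosomies of the same line to ask whether the level followed segment dosage without the control. MIR171g was called in 5 of 14 lines, against 18.2% of all tests, and in both directions. It was lower with 3 copies than with 1 copy in 1L, at 2.39 to 7.33 RPM in trisomies against 17.2 to 47.99 RPM in monosomies (log2 fold change −2.58 ± 0.48, FDR = 0.0142). The same held in 3L, at 8.36, 11.1, 12.3 and 12.7 RPM in trisomies against 21.02, 35.4, 39.6 and 46.6 RPM in monosomies (−1.51 ± 0.26, FDR = 3.17e-07), and in 4S (−1.70 ± 0.35, FDR = 7.37e-05). It was higher with 3 copies in 4L, at 12.4, 13.1, 16.1 and 47.4 RPM in trisomies against 7.58, 10.2, 13.5 and 19.1 RPM in monosomies (1.21 ± 0.32, FDR = 0.00247), and in 9S (0.70 ± 0.22, FDR = 0.0336). The 1L and 3L groups did not overlap, and those of 4S, 4L and 9S did. Scaled by all mapped reads instead of TMM, the lines called lower were 1L, 3L and 6L (−0.84, against −0.39 with TMM), the only line called higher was 5L (1.34), and 4S (−1.44), 4L (0.83) and 9S (0.42) were not called. The 5L line, at 1.11 ± 0.44 and not called, was called in 4 of 7 alternatives.

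Several of these calls rested on single plants. The 1L call was lost without the second or the fourth trisomic plant (−2.97 to −2.22 over the plants left out), and the 4L call without the trisomic plant at 47.4 RPM or the first monosomic plant (0.71 to 1.85). The 9S call was lost without any of 6 of its 7 samples (0.33 to 0.91), all but the fourth monosomic plant, and held in only 2 of 7 alternatives of scaling, filter, test and samples (0.42 to 0.70). Tetrasomies set against trisomies gave 0 calls in 4 lines by edgeR and by DESeq2, against 1.76% of all tests, with an unadjusted p under 0.05 in 2 lines (5S, −0.98 ± 0.40, and 10L, 0.96 ± 0.43).

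The 1S, 3S and 5L lines share a diploid control in which MIR171g was the lowest of all diploid controls, at 9 to 12 counts per library. Of 6 pairs among their monosomies and trisomies, 3 were called, against 29.8% of all tests. These pairs share groups too and are not independent of each other. The 1S monosomies, at 5.31, 7.41, 8.39 and 9.95 RPM, were all above the 3S monosomies, at 2.28, 2.68, 2.74 and 2.96 RPM (log2 fold change 1.15 ± 0.45, FDR = 0.0476). The 5L trisomies were higher than the others: the 1S trisomies (6.24, 6.63, 6.83 and 9.14 RPM) and the 3S trisomies (2.39, 2.68, 3.36 and 7.39 RPM) were both below the 5L trisomies (−1.70 ± 0.46, FDR = 0.00267, and −1.40 ± 0.42, FDR = 0.0318). Scaled by all mapped reads, 1 of the 6 pairs was called lower and 1 higher, and the difference of the 1S and 3S trisomies, not called, turned from −0.31 to 0.83. The 3S monosomies rest on 3 to 6 counts per plant. The 1S and 3S monosomy call was lost without any of 6 of 8 plants (1.06 to 1.26; 3S replicates 1 to 3 and 1S replicates 2 to 4), and the 3S and 5L trisomy call without any of 6 of 8 plants (−1.95 to −1.18; 3S replicates 1, 3 and 4 and 5L replicates 1 to 3).

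Across ploidy, MIR171g was not called in any comparison by edgeR. Haploids had 61.96, 64.1, 76.5 and 110 RPM, against 27.6, 52.6, 68.1 and 76.5 RPM in their diploids, with overlap (log2 fold change 0.56 ± 0.32, unadjusted p = 0.0996, FDR = 0.706, 0% of 41 loci called). Triploids had 18.6 and 31.8 RPM, against 6.39, 19.1 and 28.9 RPM in their diploids (0.23 ± 0.49, unadjusted p = 0.649, FDR = 0.995, 0% of 39 loci called). Tetraploids had 6.27, 12.7, 49.03 and 82.1 RPM, against 49.5, 95.2, 170.1 and 345 RPM in their diploids, 165 ± 130 RPM (SD, n = 4) in all.

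The tetraploid groups overlapped and both spread widely, with a log2 fold change of −2.02 ± 0.66 (unadjusted p = 0.00682, FDR = 0.293, 0% of 43 loci called). Without a filter on low values the FDR was 1.49e-04, and MIR171g was also called without the first tetraploid plant (−3.07) or without the first (−2.68), the third (−2.48) or the fourth (−2.36) of the diploids. The effect in tetraploids minus that in triploids, each against its own diploids, was −2.25 ± 1.11 (unadjusted p = 0.0602, FDR = 0.956, 0% of 42 loci called), and it was called without the first tetraploid plant (−3.33). DESeq2's Wald test called none of these either.

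**Figure D5:**
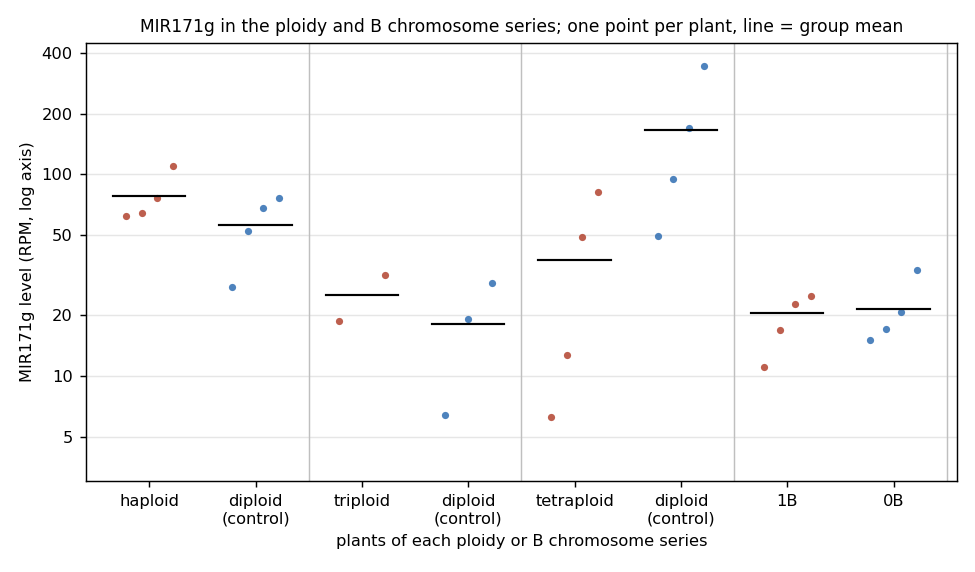
MIR171g level in RPM on a log axis in each haploid, triploid, tetraploid and 1B plant (red) and each plant of its own control (blue), with group means as black lines. The tetraploid plants run from 6.27 to 82.1 RPM and their diploids from 49.5 to 345 RPM, and each of the other pairs overlaps in part.

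MIR171g was not called between 1B and 0B plants. Plants with 1B had 11.04, 16.9, 22.6 and 25.01 RPM, the lower 2 of them counted as 1 sample, against 15.1, 17.1, 20.7 and 33.4 RPM in 0B plants. The groups overlapped, with a log2 fold change of −0.47 ± 0.43 by edgeR (unadjusted p = 0.282, FDR = 0.842, 3 samples against 4, 2.33% of 43 loci called). By edgeR with all mapped reads the change was −0.11.

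The other MIR171 loci were called lower in few aneuploids. MIR171f and MIR171i were at or near 0, with highest group means of 0.73 and 0.32 RPM, and passed the filter of 0.5 RPM in no comparison. MIR171e, MIR171n, MIR171m, Cluster_42505 and MIR171j were fitted in every aneuploid comparison. In disomies, where MIR171g was called lower in 12 of 17, these 5 loci were called lower in 0 of 85 fits by edgeR (4 at an unadjusted p under 0.05). They were called higher in 9 of the 85 fits (median log2 fold change 0.07). Of all tests in disomies, 7.08% were called lower and 9.36% higher. The varied segment held the locus itself in 5 of the 85 fits, 3 of them called higher, and in the other 80 fits 6 were called higher. In monosomies these 5 loci were called lower in 3 and higher in 7 of 70 fits (median 0.13), against 7.8% of all tests called lower and 6.34% called higher. The segment held the locus in 1 of the lower calls. In trisomies they were called by edgeR in 0 of 80 fits (5 at an unadjusted p under 0.05, median −0.08), against 2.61% of all tests called lower and 2.32% called higher. MIR171e, MIR171f, MIR171i and MIR171n share a mature sequence, as do MIR171m and Cluster_42505, so their levels depend on how the shared reads were placed, which was not tested.

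Across the 81 group means the log2 level of MIR171g correlated with that of these 5 loci at Pearson's r of −0.38 (MIR171e and MIR171n) to −0.09 (MIR171j). The loci most like it were MIR172d (Cluster_247215, r = 0.61), MIR167h (Cluster_229850, r = 0.54) and the unnamed Cluster_55368 (r = 0.45). MIR172 loci regulate AP2-like transcription factors and MIR167 loci regulate auxin response factors. The groups share Experiments and controls, the correlations are across groups and not across independent samples, and MIR172d and Cluster_55368 averaged only 1.08 and 0.59 RPM. The study called Cluster_229850 between 1B and 0B plants and left it out of its later analysis, and some groups correlated here carry B chromosome material.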

How the data were processed

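Leaf small RNA libraries of 322 maize plants were used. Per the study's methods and the labels, the authors trimmed reads with cutadapt 1.16, removed low-quality and structural RNA reads, aligned the rest to W22v2 with ShortStack, and deposited raw counts per MIRNA locus. The authors also deposited RPM, the counts per 1000000 mapped reads. How reads matching several loci were placed was not tested. All 644 columns were matched to plants by title.

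The locus and the lists of loci were chosen with earlier results of these data known, and the named loci are MIR171g, the MIR171 family and the 3 loci whose log2(group mean RPM + 1) correlated most with it. Each comparison was fitted on its own groups by the quasi-likelihood test of edgeR 4.0.16 (R 4.3.3), over every locus whose mean reached 0.5 RPM. Library sizes were sums over all loci with TMM factors, and p-values were adjusted by Benjamini-Hochberg within a comparison. Both effects of the tetraploid and triploid comparison were fitted together. SE was the log2 fold change over the root of F. Because F shares the estimate of spread across loci, an SE can be smaller than the plants of MIR171g alone would give. Plant pairs with chi-square p above 0.05 over loci of at least 10 counts were summed, with each plant in at most 1 pair. Alternatives used DESeq2 1.42.0. In 100 simulated comparisons with 12 loci changed 3-fold, 50.9% to 61.4% of changed loci were recovered and 2.52% to 9.92% of calls were false. The simulation gave every locus the same dispersion, so these rates cannot be carried over to loci and groups whose spread differs. Counting error covers reads only, since they carry no molecular identifiers. Python 3.11.15 with numpy 2.4.6, pandas 2.3.3, scipy 1.17.1 and matplotlib 3.10.9 was used.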

Additional observations from a re-analysis of the deposited data

Results flagged for a closer look

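In 3 of 64 groups of 4 to 10 plants, the highest plant lay far from the rest of its group by Dixon's test, which chance does in about 1 group in 20. These were a 4L trisomic plant at 47.4 RPM (next 16.1 RPM), a 7L disomic plant at 89.5 RPM (next 27.5 RPM) and a 9L trisomic plant at 84.7 RPM (next 51.3 RPM).

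Effects against a shared control differed between lines in 8 pairs by edgeR, as log2 differences of the first line from the second. Between disomies these were 1L and 5L (−2.08), 1L and 8L (−1.74), 3S and 4L (1.83), 3L and 7S (−2.32, partly across Experiments), and 9L and 10L (−1.31). Between aneuploids with the 1S, 3S and 5L control they were the 1S and 3S monosomies (1.15), the 1S and 5L trisomies (−1.70) and the 3S and 5L trisomies (−1.40).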

How the results depend on the processing

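Scaling by all mapped reads moved the median log2 fold change of all loci by more than 0.1 in 74 of 114 comparisons (−0.62 to 1.14, median −0.02). With all mapped reads, 3 monosomies and 0 tetrasomies were called. DESeq2's Wald test called 5 trisomies (4 lower, 1 higher), 0 tetrasomies and 2 haploid control pairs. DESeq2's size factors in edgeR called 2 haploid control pairs, no filter on low values called 0 tetrasomies and gave −2.0002 in tetraploids (called), and a mean RPM of at least 1 called 0 haploid control pairs. Leaving out each plant in turn gave 0 to 1 calls in tetrasomies, 0 to 2 between haploid controls, 0 to 1 between tetrasomies and trisomies (1 without the first 10L trisomic plant), −3.07 to −1.29 in tetraploids, −3.33 to −1.52 for the tetraploid minus the triploid effect, and −0.25 to 0.70 in triploids. Besides aneuploid-control contrasts (above), values not called turned direction in the 9L trisomy against monosomy (−0.04 as reported). This value was 0.0052 with DESeq2's size factors, 0.0055 with DESeq2 and 0.11 with no filter. Dp4 tetrasomies against trisomies turned with left-out libraries returned (0.0688), and the 1S and 3S trisomies with all mapped reads (0.83). The causes were not tested.

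Besides aneuploid-control contrasts (above), single plants turned other values not called. Ranges were −0.76 to 0.13 (5S) and −0.22 to 0.0332 (9L) for trisomies against monosomies, and −0.46 to 0.0481 for Dp4 tetrasomies against trisomies. For controls they were −0.15 to 0.82 (1L and Dp4), −0.47 to 0.51 (4S and 7L) and −0.77 to 0.18 (4S and 9L). They were −1.02 to 0.13 for the 7L and 9L disomies and −0.53 to 0.20 for the 1S and 3S trisomies. The 7L and 8L monosomy calls were each lost without any of 6 of 8 plants (−0.60 to −0.38 without monosomic replicates 1 and 2 or any 7L control in turn, −1.02 to −0.57 without monosomic replicates 2 and 3 or any 8L control), and the 5S tetrasomy call without any of 6 of 8 (−1.53 to −0.87; tetrasomic replicates 1, 2 and 4, controls 2 to 4). The 5S and tetraploid-series control call was lost without any of 5 of 8 plants (−1.88 to −0.85; 5S replicates 1, 3 and 4, tetraploid-series replicates 1 and 2), the 6S and 0B call without 6S replicate 1 or the joined 6S pair (−1.81 to −1.06), and the 8L and 9S control call without 8L replicates 1 or 3 or 9S replicate 1 (0.50 to 0.93). In disomies, the 5S call was lost without disomic or control replicate 4 (−1.66 to −0.90) and the 8L call without the first control plant (−1.30 to −0.79), and monosomy calls without 6L control replicate 4 (6L, −1.22 to −0.71) and without 9S monosomic replicate 3 or control replicate 4 (9S, −0.95 to −0.45). Calls were gained without 1 plant in the 6L (−1.67), 5L (−0.86) and 2S_deletion (−1.02) disomies, each without 1 disomic plant, in the 5L trisomies (1.22 without replicate 4; against 5L monosomies 1.27 without it and 1.57 without monosomic replicate 1), between the 3S and 6L disomies (1.57 without 3S replicate 5), between the 4S and 8L (−1.29 without 4S replicate 4), 4L and 10L (−1.52 without 10L replicate 2), haploid- and tetraploid-series (−1.51 without tetraploid-series replicate 4) and 3S, 4L and 6L against 7L, 9L and 10L controls (−0.89 and −0.87 without replicate 1 of either), and, without any of 5 of 9 plants, between the 7L and 10L disomies (−2.39 to −1.12 over the plants left out). Counting each plant of a near-identical pair on its own and returning the left-out libraries left every count of calls within 1.5 times. The 2 loci most like MIR171g kept their ranks by Spearman correlation or with a pseudocount of 0.1, while Cluster_55368 ranked 5. No paired analysis was possible because the labels give plant numbers that are not shared between groups. Depth limits the lines with under 10 counts per plant.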
